A study of Mus musculus with 49 samples.

Results

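Goblet cells and Paneth cells are the mucus-secreting and the antimicrobial-secreting cells of the small intestinal lining, and their messenger RNA was compared here in sorted mouse cells. The comparison rests on 4 libraries, 2 labelled goblet and 2 labelled Paneth, chosen by their labels alone from the 25 RNA-seq libraries of a series of 49 samples. Both groups came from the proximal 1/3 of the small intestine of adult wild-type mice on a mixed B6;129 background. The goblet libraries came from crypt cells sorted as CD69+ CD274+. Their mice had received DBZ, a gamma-secretase inhibitor that blocks Notch signalling, at 48 mg/kg at 0 and 12 h, and were killed at 115 h. The Paneth libraries came from untreated mice, as cells high for CD24 and high for staining with UEA lectin, which binds fucose. Both groups were released with Dispase, and both were made into cDNA libraries with a SMART-Seq v4 kit. Treatment, sorting gate and cell type therefore differ together and cannot be told apart in this comparison. A pair of other groups was set against the goblet cells. The enterocyte progenitors (EP) were unsorted crypts of Atoh1 F/F; Villin-CRE mice, taken 3 weeks after 5 days of tamoxifen at 1 mg. The DBZ secretory progenitors (SP DBZ) were unsorted crypts of Atoh1 F/F mice taken 38 h after DBZ was begun on the same dosing as the goblet mice. Both are mixtures of crypt cells, and no Dispase step is recorded for either.

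Goblet and Paneth cells arise from a common secretory precursor that depends on the transcription factor ATOH1 and that forms when Notch signalling is low. Goblet cells fill apical granules with the gel-forming mucin MUC2 and its partner proteins, and they move up onto the villus. Paneth cells stay at the crypt base, where Wnt signals are strong, and store lysozyme and alpha-defensins; they also feed the neighbouring stem cells with growth signals. Enterocytes, the absorptive cells of the villus, carry the brush border and take up fat, sugar and amino acids.

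The goblet libraries held 16050250 and 18175430 counts, and the Paneth libraries 13978132 and 18296769. The 10 genes with most counts took 12.9% and 14.9% of the goblet libraries and 39.7% and 24.4% of the Paneth libraries. The replicates of a group differed by a median of 0.223 on the log2 scale in goblet cells and 0.419 in Paneth cells, against 1.03 to 1.14 between libraries of different groups. The Paneth libraries were not alike in their other cells: 17 of 17 tuft cell genes tested were higher in Paneth replicate 2 and 0 of 19 Paneth granule genes were. Levels are given in CPM, which sets each gene's reads against its library's TMM-scaled total. The percent given below for a gene group is of that scaled total, which differs from its share of the library's counts. A gene was called, that is, it rose or fell in goblet cells, when its Benjamini-Hochberg adjusted p from the edgeR quasi-likelihood test was below 0.05 over all 14837 genes tested. A log2 difference is goblet minus Paneth. Unless marked SD, the value after ± is an approximate standard error. It is the size of the difference divided by the square root of the test's F statistic. The labels call the replicates biological but do not say whether they share a mouse, so the p-values measure spread between libraries. That spread was estimated jointly over the 24 libraries of 11 groups in the fit, not from the goblet and Paneth libraries alone. In whole sorted populations, fewer cells of a type and less RNA per cell cannot be told apart.

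**Figure D1:**
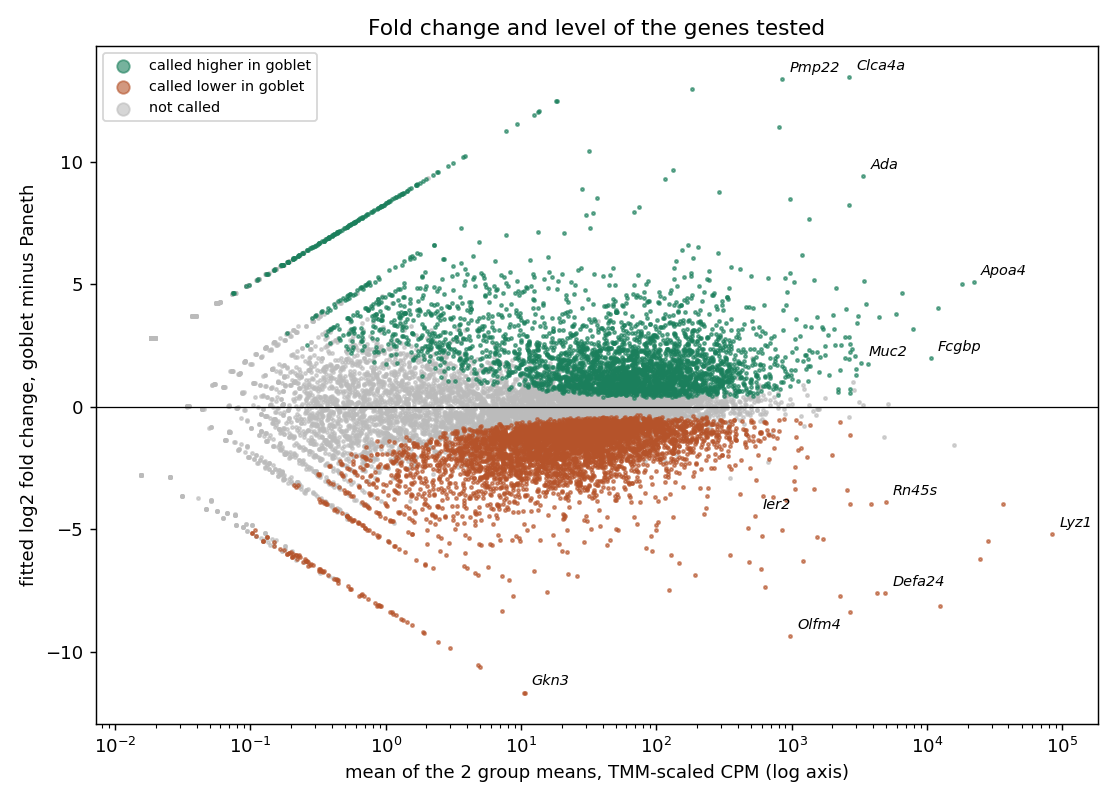
Each point is a gene, placed by the mean of the goblet and Paneth means (x, TMM-scaled CPM, log axis) and its fitted log2 fold change, goblet minus Paneth (y), with the 3411 called higher and the 4567 called lower in colour. Points on the outer diagonal lines are genes with no count in one group, whose fitted size depends on the prior count.

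Most genes tested differed between the groups. In goblet cells 3411 of 14837 genes were called higher and 4567 lower, so 7978 (53.8%) were called in all. These are 23% higher and 30.8% lower, the background against which the counts of each gene group below are to be read. The median log2 difference over all genes tested was -0.17. A difference of at least 1 on the log2 scale was fitted for 2654 of the called higher genes and 3557 of the called lower genes. For 11263 genes (75.9%) the goblet and Paneth libraries did not overlap, so a lack of overlap alone says little here. Leaving out a single library moved the fitted fold of 45 of the 101 called genes named here by over 1.5 times, most often Paneth replicate 1 (32 genes), and turned the direction of none of the 45.

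The mucus genes were higher in goblet cells, though less steeply than several genes of other groups. Of 16 goblet mucus and granule genes tested, 9 rose, 1 fell and 6 were not called, with a median log2 difference of 1.81 against -0.17 for all genes. Muc2, the gel-forming mucin, stood at 4827 and 5279 CPM in goblet libraries and at 1852 and 1099 CPM in Paneth libraries. The groups did not overlap, and the fitted difference was 3.42-fold (log2 1.78 ± 0.36, edgeR adjusted p = 0.00037). Clca1, a secreted mucus protein that processes MUC2 and that the count table lists under its older symbol Clca3, stood at 23394 and 47159 CPM in goblet cells and 1334 and 881 CPM in Paneth cells. It rose 31.8-fold (log2 4.99 ± 0.64, edgeR adjusted p = 3.8e-06), or 21.2-fold without goblet replicate 2. Capn9, a calpain protease of the gut lining, was at 125 and 228 CPM in goblet cells and 24.0 and 12.5 CPM in Paneth cells (log2 3.28 ± 0.51, edgeR adjusted p = 3.0e-05). Bcas1 was at 253 and 334 CPM in goblet cells and 63.9 and 32.5 CPM in Paneth cells (log2 2.61 ± 0.41, edgeR adjusted p = 3.7e-05). In each of these genes both goblet libraries stood above both Paneth libraries.

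Other products of mucus granules, chosen after their values were seen, ranged from large to no measured difference. Zg16, a lectin-like mucus protein that binds bacteria, was at 11911 and 16233 CPM in goblet cells and 2288 and 877 CPM in Paneth cells (log2 3.15 ± 0.74, edgeR adjusted p = 0.0016). Fcgbp, a mucus protein that links to MUC2, was at 13728 and 20381 CPM in goblet cells and 6197 and 2440 CPM in Paneth cells (log2 1.98 ± 0.51, edgeR adjusted p = 0.0032). Tff3, a trefoil peptide of goblet granules, was at 2810 and 5626 CPM in goblet cells and 2438 and 1029 CPM in Paneth cells (log2 1.28 ± 0.50, edgeR adjusted p = 0.038). All 3 rose, and Tff3 was the closest between the groups, with goblet replicate 1 just above Paneth replicate 1. Spink4, a protease inhibitor peptide, went the other way in value at 2517 and 3227 CPM in goblet cells and 9193 and 4215 CPM in Paneth cells, but was not called (log2 -1.22 ± 0.52, edgeR adjusted p = 0.054). Agr2, the disulfide isomerase needed to make MUC2, was at 1043 and 996 CPM in goblet cells and 1869 and 784 CPM in Paneth cells (edgeR adjusted p = 0.50), and the groups overlapped. Its fitted difference of -0.38 turned to 0.38 without Paneth replicate 1. Ramp1, a subunit of the CGRP receptor, was the one listed gene that fell (40.9 and 71.9 CPM in goblet cells against 149 and 87.4 CPM in Paneth cells, edgeR adjusted p = 0.021). The call of Tff3 was lost without goblet replicate 2 (log2 0.70) or Paneth replicate 2 (log2 0.80), and that of Fcgbp without Paneth replicate 2 (log2 1.47). The calls of Tff3 and Ramp1 were also lost with only the compared groups in the fit, and that of Ramp1 with DESeq2 size factors. That of Ramp1 was lost without goblet replicate 1 (log2 -0.71) or Paneth replicate 1 (log2 -0.63), while Spink4 became called with no filter or without Paneth replicate 2 (log2 -1.67).

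**Figure D2:**
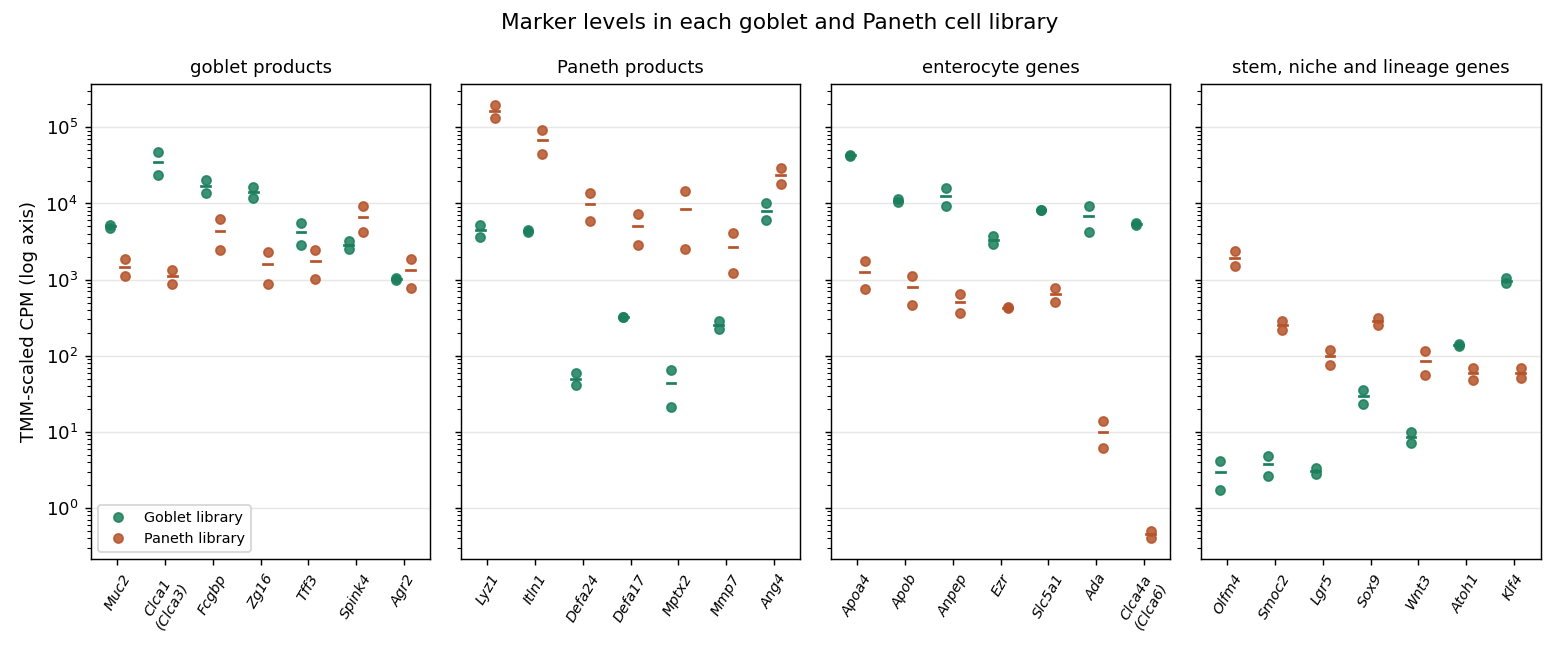
Levels of goblet, Paneth, enterocyte and stem or lineage genes (TMM-scaled CPM, log axis) in each goblet library and each Paneth library, with short bars at the group means. Clca1 and Muc2 stand higher in both goblet libraries, Lyz1 and Defa24 stand higher in both Paneth libraries, and Olfm4 lies under 5 CPM in goblet libraries.

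Set against the DBZ secretory progenitors, the same 16 genes gave 12 called higher and 0 lower, with a median log2 difference of 3.08 against -0.07 for all genes. There the background was 55% called, with 24.9% up and 30.1% down. Muc2 was at 624 and 428 CPM in the progenitors (log2 3.26 ± 0.38, edgeR adjusted p = 7.3e-07). Clca1 was at 1293 and 572 CPM there (log2 5.24 ± 0.65, edgeR adjusted p = 1.7e-06), close to its Paneth levels. The progenitor replicates were unlike each other in crypt base genes, with Olfm4 at 1135 and 62.8 CPM, and leaving out either still gave 11 goblet genes called higher. The goblet libraries are shared by this comparison and that with Paneth cells.

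Mucins are decorated with O-linked sugar chains, and the enzymes that extend and cap those chains were more often higher than lower in goblet cells. Of 28 mucin-type O-glycosylation genes tested, 12 rose and 3 fell, with a median log2 difference of 0.73. Gal3st2, a galactose sulfotransferase, was at 513 and 570.1 CPM in goblet cells and 58.3 and 58.2 CPM in Paneth cells (log2 3.22 ± 0.30, edgeR adjusted p = 1.4e-07). B4galnt2, which adds the terminal sugar of the Sda antigen, was at 1119 and 1092 CPM in goblet cells and 331 and 233 CPM in Paneth cells (log2 1.97 ± 0.23, edgeR adjusted p = 1.6e-06). St3gal6, a sialyltransferase, was at 183 and 280.4 CPM in goblet cells and 42.0 and 49.7 CPM in Paneth cells (log2 2.34 ± 0.30). Gcnt3, the branching enzyme that makes core structures of mucin glycans, was at 408 and 528 CPM in goblet cells and 122 and 63.7 CPM in Paneth cells (log2 2.33 ± 0.35). The 4 genes rose with no overlap, and within each gene the replicates lay much closer together than the groups. St6galnac1, a sialyltransferase that caps the first mucin sugar, chosen after its values were seen, fell to 0.158 and 0 CPM in goblet cells, against 2.96 and 12.7 CPM in Paneth cells, on 2 goblet counts. St3gal4, another sialyltransferase, was not called, at 1414 and 1723 CPM in goblet cells and 531 and 1159 CPM in Paneth cells (edgeR adjusted p = 0.098). It was called without Paneth replicate 2 (log2 1.57), with DESeq2 size factors (log2 1.12), with the DESeq2 Wald test (log2 1.12) and with a replicate block (log2 1.13). The count of falling genes was 1 without goblet replicate 2 or Paneth replicate 1, and the call of St6galnac1 was lost without goblet replicate 2 (log2 -5.60) or Paneth replicate 2 (log2 -5.16).

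Genes for docking and releasing granules that were called with all libraries in the fit rose. Of 22 tested, 15 rose, 0 fell and 7 were not called, with a median log2 difference of 0.95. Some fell without goblet replicate 1 or Paneth replicate 2. Rab37, a GTPase of secretory granules, was at 24.3 and 33.8 CPM in goblet cells and 0.715 and 0.812 CPM in Paneth cells (log2 5.23 ± 0.80, edgeR adjusted p = 3.2e-05). Myo5c, a myosin motor of exocrine granules, was at 154 and 201 CPM in goblet cells and 62.8 and 46.0 CPM in Paneth cells (log2 1.71 ± 0.22, edgeR adjusted p = 5.0e-06). Stx3, an apical membrane fusion protein, was at 167 and 166 CPM in goblet cells and 52.4 and 69.8 CPM in Paneth cells (log2 1.44 ± 0.20). Mlph, which ties granules to myosin, was at 159 and 279 CPM in goblet cells and 78.7 and 57.4 CPM in Paneth cells (log2 1.69 ± 0.28). All but Rab37 were also readily detected in Paneth cells. Against the DBZ secretory progenitors, 18 of the 22 docking genes and 15 of the 28 glycosylation genes rose and 0 fell. Leaving out goblet replicate 2 lowered that glycosylation count to 9.

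**Figure D3:**
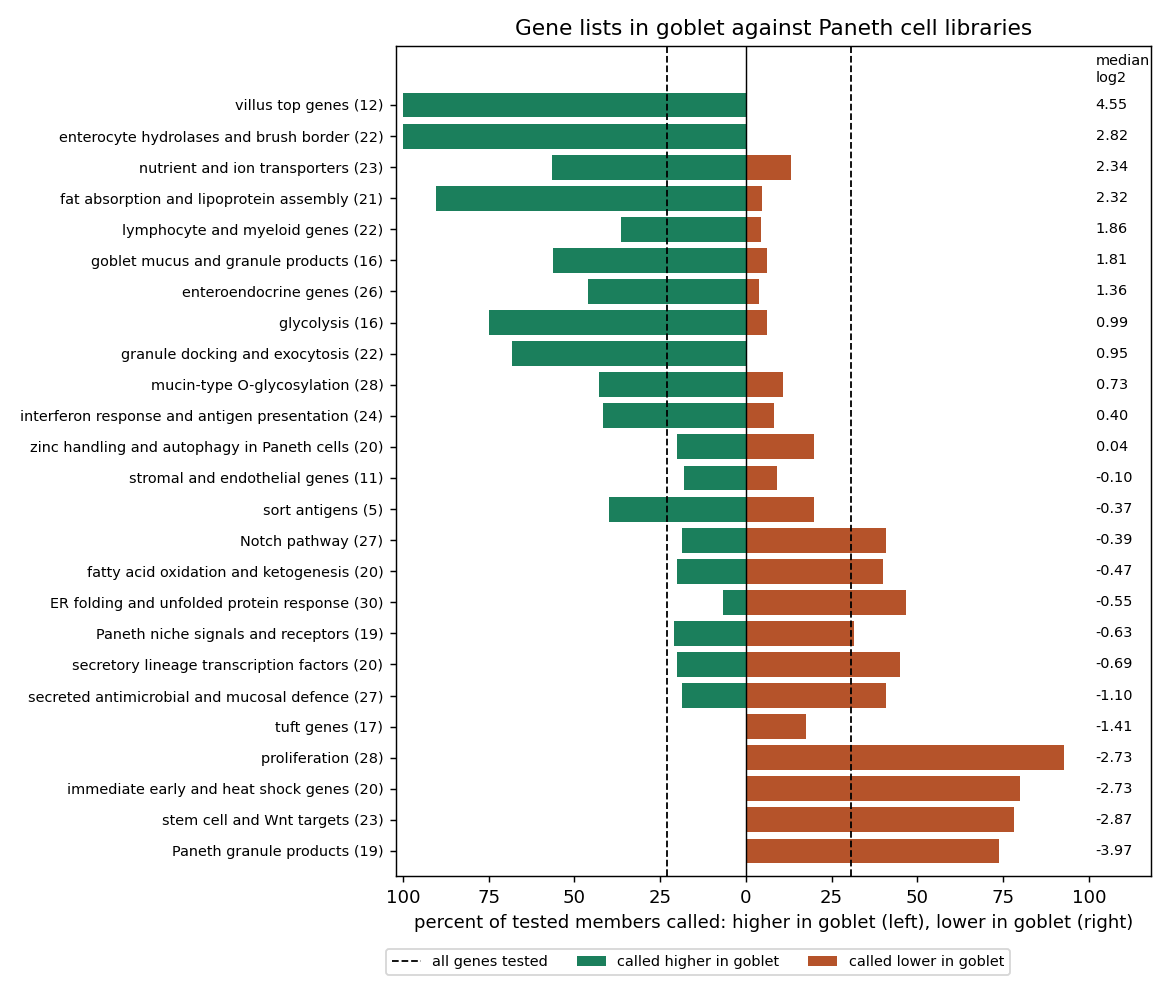
Bars give, for each gene group (number tested in brackets), the percent of members called higher (left) and called lower (right) in goblet cells against Paneth cells, with the median log2 difference beside them. Dashed lines mark the shares over all genes, 23% and 30.8%, and the villus top and brush border groups reach the end of the axis on the higher side.

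The products of Paneth granules were lower in goblet cells. Of 19 Paneth granule genes tested, 0 rose, 14 fell and 5 were not called, with a median log2 difference of -3.97. Of the TMM-scaled totals, together they took 1.96% and 2.47% in goblet libraries and 39.4% and 21.9% in Paneth libraries. Lyz1, the lysozyme of Paneth granules, stood at 5252 and 3610 CPM in goblet cells and 195157 and 131664 CPM in Paneth cells, a 36.9-fold lower level in goblet cells (log2 -5.20 ± 0.56, edgeR adjusted p = 5.6e-07). Defa24, an alpha-defensin, was at 41.2 and 59.2 CPM in goblet cells and 13677 and 5962 CPM in Paneth cells, 195-fold lower in goblet cells (log2 -7.61 ± 0.64, edgeR adjusted p = 4.5e-08), or 119-fold without Paneth replicate 1. Both Paneth libraries lay far above both goblet libraries in these genes, and Paneth replicate 1 was the higher of the pair.

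The defensins did not all fall by the same amount. Defa17 was at 319 and 328 CPM in goblet cells and 7311 and 2834 CPM in Paneth cells (log2 -3.97 ± 0.50, edgeR adjusted p = 2.9e-06). Defa5 was at 16.6 and 4.20 CPM in goblet cells and 1103 and 288 CPM in Paneth cells (log2 -6.06 ± 0.79). Defa21 was at 32.4 and 0 CPM in goblet cells and 8710 and 2110 CPM in Paneth cells (log2 -8.39 ± 1.60, edgeR adjusted p = 0.00024). Goblet replicate 2 held no Defa21 count while goblet replicate 1 held a clear level, and the same was seen for Defa22 with 41.5 and 0.442 CPM in goblet cells and 7294 and 1711 CPM in Paneth cells (log2 -7.75 ± 1.54). Reads of near-identical defensin copies may be shared out by the counting, so single values here are uncertain. Mptx2, a pentraxin of Paneth cells, was at 21.0 and 65.8 CPM in goblet cells and 14371 and 2521 CPM in Paneth cells (log2 -7.60 ± 1.03, edgeR adjusted p = 7.1e-06). Ang4, an antimicrobial ribonuclease, kept a high level in goblet cells, at 6037 and 10099 CPM there and 29642 and 18022 CPM in Paneth cells, and was not called (log2 -1.56 ± 0.73, edgeR adjusted p = 0.080). Itln1, an intelectin that binds bacterial sugars, chosen after its values were seen, fell to 4276 and 4432 CPM in goblet cells, against 93251 and 44251 CPM in Paneth cells (log2 -3.98 ± 0.58). Mmp7, the protease that activates defensins, chosen the same way, fell to 289.6 and 221 CPM in goblet cells, against 4112 and 1220 CPM in Paneth cells (log2 -3.38 ± 0.51).

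The promoters of 6 genes of the opposing programmes, taken as the 250 bases before each start, are shown with 3 short motifs searched in them, and the Apoa4 and Lyz1 windows hold none of the 3. They come from RefSeq on GRCm38.p6 and are written 5′ to 3′ on the gene's own strand. Capitals mark ATCAAAG, a TCF/LEF site that Wnt signalling acts on, CAAAGTCCA, an HNF4 site, and TATAAA, the TATA box, searched on both strands. Muc2 lies at chr7:141690090-141690339 on the plus strand, Alpi at chr1:87101607-87101856 on the minus strand, Apoa4 at chr9:46240594-46240843 on the plus strand, Defa21 at chr8:21025295-21025544 on the plus strand, Mmp7 at chr9:7691840-7692089 on the plus strand, and Lyz1 at chr10:117292869-117293118 on the minus strand.
Muc2: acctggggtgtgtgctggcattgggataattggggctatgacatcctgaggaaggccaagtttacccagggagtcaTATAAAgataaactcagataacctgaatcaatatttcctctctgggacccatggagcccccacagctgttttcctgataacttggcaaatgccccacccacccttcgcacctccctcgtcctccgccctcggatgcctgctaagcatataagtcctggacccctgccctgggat
Alpi: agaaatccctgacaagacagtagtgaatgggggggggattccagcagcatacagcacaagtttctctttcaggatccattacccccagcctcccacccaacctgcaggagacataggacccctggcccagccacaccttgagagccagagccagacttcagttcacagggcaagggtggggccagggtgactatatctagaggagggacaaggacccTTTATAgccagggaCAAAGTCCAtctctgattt
Apoa4: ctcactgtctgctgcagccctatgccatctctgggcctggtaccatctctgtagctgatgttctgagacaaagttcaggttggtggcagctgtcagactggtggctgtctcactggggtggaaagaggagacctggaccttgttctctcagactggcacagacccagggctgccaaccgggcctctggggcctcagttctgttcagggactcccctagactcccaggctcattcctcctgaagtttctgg
Defa21: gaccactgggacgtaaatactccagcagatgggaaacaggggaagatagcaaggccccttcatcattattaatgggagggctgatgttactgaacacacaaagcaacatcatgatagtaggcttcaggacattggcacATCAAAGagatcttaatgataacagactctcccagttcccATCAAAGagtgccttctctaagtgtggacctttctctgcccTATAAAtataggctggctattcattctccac
Mmp7: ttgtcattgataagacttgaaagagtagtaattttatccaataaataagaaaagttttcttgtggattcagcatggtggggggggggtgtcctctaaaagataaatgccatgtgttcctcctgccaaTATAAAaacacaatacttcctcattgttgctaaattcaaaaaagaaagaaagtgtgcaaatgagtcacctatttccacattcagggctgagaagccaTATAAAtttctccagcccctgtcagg
Lyz1: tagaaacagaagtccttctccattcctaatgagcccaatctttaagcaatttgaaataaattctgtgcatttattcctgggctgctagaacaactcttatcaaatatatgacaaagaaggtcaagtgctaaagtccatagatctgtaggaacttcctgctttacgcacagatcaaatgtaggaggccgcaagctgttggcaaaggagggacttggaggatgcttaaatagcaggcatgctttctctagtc

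The Defa21 window holds TCF/LEF letters at -112 and -72 and a TATA box at -31 relative to the start, and the Defa22 window is the same in 250 of 250 bases. ATCAAAG was found in 5 of 14 Paneth granule promoters in the tables (35.7%: Defa20, Defa21, Defa22, Defa23 and Reg3g) and in 3.23% of all 27025 promoters. These 5 are not independent, since the defensins are copies of each other, and Defa20 and Defa23 were not among the genes tested. The same letters were in 2 of 19 brush border, 0 of 16 fat absorption and 1 of 8 goblet mucus promoters. The letters TATAAA, counted anywhere in the window, were in 7 of the 14 Paneth granule promoters and 7 of 19 brush border promoters. They were in 5 of 16 fat absorption promoters, 1 of 8 goblet mucus promoters (Muc2, at -174) and 13% of all promoters. The HNF4 letters were found in 2 of 19 brush border promoters, those of Alpi and Treh, in none of the promoters of the other 3 gene groups, and in 0.381% of all promoters. Over the whole comparison the TCF/LEF letters were no commoner in promoters of genes that fell (2.14%) than in those tested at all (2.32%). The letters describe these windows and do not show binding.

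In the protein-folding machinery behind the granules, more genes fell than rose in goblet cells. Of 30 genes for folding proteins in the endoplasmic reticulum and for its stress response, 2 rose and 14 fell, with a median log2 difference of -0.55. Spcs2, a subunit of signal peptidase, was at 77.6 and 82.7 CPM in goblet cells and 290.0 and 271 CPM in Paneth cells (log2 -1.81 ± 0.20, edgeR adjusted p = 8.6e-07). Pdia6, a disulfide isomerase, was at 123 and 123 CPM in goblet cells and 585 and 392 CPM in Paneth cells (log2 -1.99 ± 0.25, edgeR adjusted p = 3.0e-06). Dnajb9, a chaperone of the stress response, rose to 188 and 196 CPM in goblet cells, against 57.1 and 55.3 CPM in Paneth cells (log2 1.77 ± 0.26). Xbp1, the transcription factor of that response, was at 257 and 295 CPM in goblet cells and 618 and 391 CPM in Paneth cells (log2 -0.87 ± 0.21, edgeR adjusted p = 0.0018). P4hb, another disulfide isomerase, was at 3584 and 3273 CPM in goblet cells and 3389 and 3153 CPM in Paneth cells (log2 0.07 ± 0.26), so the groups overlapped. Leaving the other groups of the series out of the fit lowered the count of falling genes to 8 and ended the call of Xbp1, which was also lost without Paneth replicate 1 (log2 -0.50).

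Beside the mucus genes, the goblet libraries carried a large enterocyte programme. Every one of 22 brush border and digestive enzyme genes tested rose, with a median log2 difference of 2.82. Of 21 fat absorption genes 19 rose and 1 fell, and of 12 villus top genes 12 rose. Of the TMM-scaled totals, brush border genes took 7.15% and 5.92% in goblet libraries and 0.544% and 0.838% in Paneth libraries. Fat absorption genes took 11% and 10.9% in goblet libraries against 0.732% and 1.59% in Paneth libraries. The 16 goblet mucus and granule genes took 6.21% and 10.1% in goblet libraries against 2.66% and 1.22% in Paneth libraries. In each library of the other groups in the fit, which leaves out the single irradiated Bmi1-GFP library, brush border genes took 1.40% or less and fat absorption genes 2.57% or less. Anpep, a brush border peptidase, was at 16136 and 9155 CPM in goblet cells and 367 and 649 CPM in Paneth cells (log2 4.64 ± 0.55, edgeR adjusted p = 1.8e-06). Ezr, the ezrin that ties microvilli to the membrane, was at 3703 and 2907 CPM in goblet cells and 427 and 432 CPM in Paneth cells (log2 2.94 ± 0.28, edgeR adjusted p = 1.8e-07). Mgam, a starch-digesting enzyme, was at 4285 and 3290 CPM in goblet cells and 271 and 299 CPM in Paneth cells (log2 3.73 ± 0.42). Dpp4, a peptidase that also cuts gut hormones, was at 2459 and 2076 CPM in goblet cells and 133 and 335 CPM in Paneth cells (log2 3.28 ± 0.42). Both goblet libraries lay above both Paneth libraries in each of the 4. Alpi, the intestinal alkaline phosphatase chosen after its values were seen, rose too, at 3760 and 4996 CPM in goblet cells and 331 and 891 CPM in Paneth cells (log2 2.84 ± 0.57). What enterocytes caught in the goblet gate add to these values was not tested.

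Fat absorption genes of the goblet libraries were led by apolipoproteins. Apoa4, an apolipoprotein of the chylomicrons that carry dietary fat, was at 43423 and 42383 CPM in goblet cells and 752 and 1774 CPM in Paneth cells, 34.0-fold higher in goblet cells (log2 5.09 ± 0.84, edgeR adjusted p = 5.7e-05), or 57.2-fold without Paneth replicate 2. Apob, the structural protein of chylomicrons, was at 10419 and 11435 CPM in goblet cells and 466 and 1125 CPM in Paneth cells (log2 3.78 ± 0.56). Npc1l1, the cholesterol uptake receptor, was at 1307 and 1155 CPM in goblet cells and 173 and 177 CPM in Paneth cells (log2 2.82 ± 0.38). Plin2, a lipid droplet coat protein, was the one fat gene that fell, at 36.5 and 32.5 CPM in goblet cells and 89.2 and 136 CPM in Paneth cells (log2 -1.71 ± 0.20). Fabp1, a fatty acid binding protein, was not called, at 4476 and 3107 CPM in goblet cells and 878 and 2927 CPM in Paneth cells (log2 0.99 ± 0.77, edgeR adjusted p = 0.29). Paneth replicate 2 came close to the lower goblet library.

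Of 23 nutrient and ion transporters tested, 13 rose and 3 fell, with a median log2 difference of 2.34. Slc5a1, the sodium-glucose transporter, was at 8096 and 8238 CPM in goblet cells and 501 and 781 CPM in Paneth cells (log2 3.67 ± 0.52, edgeR adjusted p = 1.1e-05). Slc15a1, the peptide transporter, was at 1938 and 1515 CPM in goblet cells and 23.8 and 67.4 CPM in Paneth cells (log2 5.24 ± 0.72). Slc12a2, the chloride uptake carrier of secretory crypt cells and also listed as a stem cell gene, fell to 69.7 and 59.4 CPM in goblet cells, against 812 and 722 CPM in Paneth cells (log2 -3.57 ± 0.28, edgeR adjusted p = 2.5e-08). Slc1a1, a glutamate transporter, and Aqp1, a water channel, were the others that fell. Both were chosen after their values were seen, and Slc1a1 was at 14.9 and 18.2 CPM in goblet cells and 58.6 and 103 CPM in Paneth cells (log2 -2.29 ± 0.38). Aqp1 was at 71.7 and 20.3 CPM in goblet cells and 164 and 121 CPM in Paneth cells (log2 -1.63 ± 0.40). The call of Aqp1 was lost with only the compared groups in the fit, and its log2 difference was -2.80 without goblet replicate 1 and -0.99 without goblet replicate 2.

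Genes that peak at the tip of the villus had the highest median log2 difference of the 25 gene groups, 4.55. The groups were chosen with earlier results of these data known, so this rank is not independent of the values. Apoa4 and Creb3l3 of this group are also listed as fat absorption genes, Krt20 as a brush border gene and Klf4 as a secretory factor. Ada, adenosine deaminase, was at 4169 and 9364 CPM in goblet cells and 13.8 and 6.18 CPM in Paneth cells, 686-fold higher in goblet cells (log2 9.42 ± 0.79, edgeR adjusted p = 4.6e-08). Its fold was 424 without goblet replicate 2 and 1094 without Paneth replicate 1. Enpp3, an ectonucleotidase, was at 4673 and 5918 CPM in goblet cells and 17.0 and 18.6 CPM in Paneth cells (log2 8.22 ± 0.80). Slc28a2, a nucleoside transporter, was at 1369 and 2523 CPM in goblet cells and 8.99 and 2.25 CPM in Paneth cells (log2 8.49 ± 0.87). Both goblet libraries of each lay far above both Paneth libraries. Nt5e, a villus top gene that makes adenosine and was chosen after its values were seen, was at 252 and 908 CPM in goblet cells and 2.66 and 0.312 CPM in Paneth cells (log2 8.78 ± 1.14, edgeR adjusted p = 4.2e-06). Slc43a3, a purine base transporter named for its size of change, was at 27.2 and 46.2 CPM in goblet cells and at 0 in both Paneth libraries, at least 149-fold higher when the Paneth level is set at 3 counts per library.

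**Figure D4:**
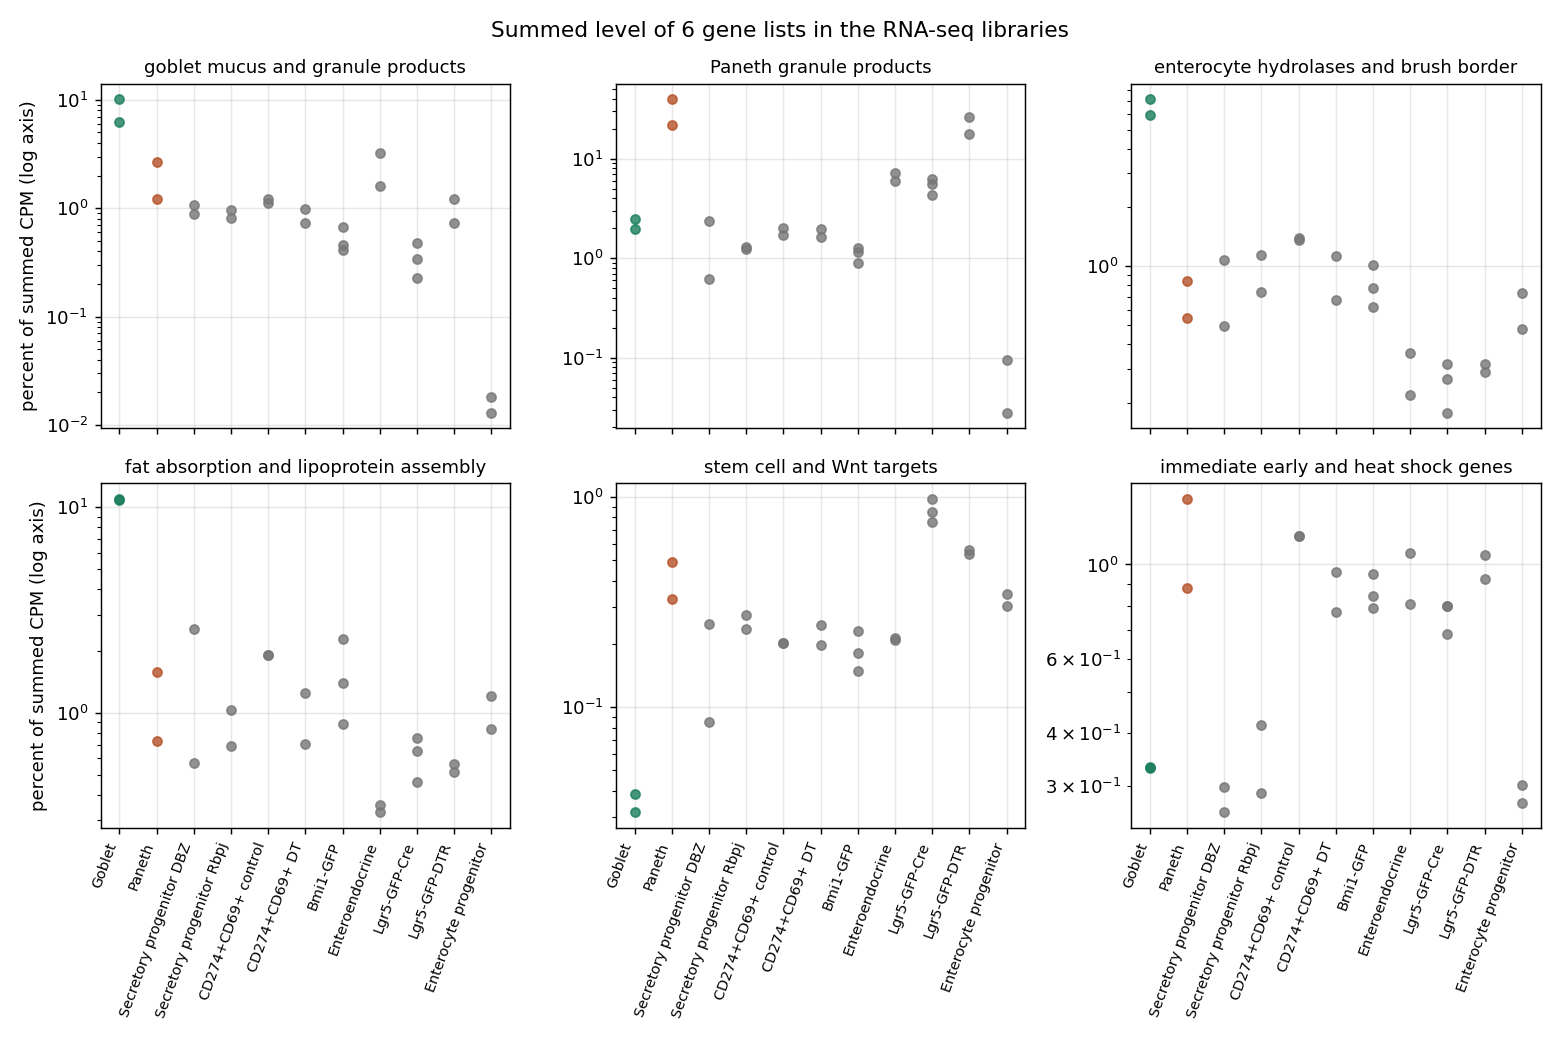
Summed level of 6 gene groups as a percent of the TMM-scaled total (log axis) in each of 24 libraries, 1 point each, by group. Fat absorption genes took 11% and 10.9% of that total in goblet libraries, above every other library shown.

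A run of calcium-activated chloride channel regulator genes on chromosome 3 (chr3:144729677-145099443 on GRCm38.p6), chosen after their values were seen, split between the groups. Clca1 in this run rose with the mucus genes, as above. Clca4a, listed in the count table as Clca6 and at chr3:144952486-144975045, was at 5165 and 5486 CPM in goblet cells and 0.409 and 0.50 CPM in Paneth cells (log2 13.47 ± 1.38, edgeR adjusted p = 3.4e-07). Clca4b, listed as AI747448, was at 5491 and 4013 CPM in goblet cells and 277 and 329 CPM in Paneth cells (log2 3.97 ± 0.52). Clca3b, listed as Clca4 and at chr3:144822623-144849302, fell instead, to 14.4 and 9.28 CPM in goblet cells, against 1315 and 589.8 CPM in Paneth cells (log2 -6.33 ± 0.50, edgeR adjusted p = 2.6e-08). Clca3b lay between 1321 and 2223 CPM in Lgr5-GFP-Cre stem cells. Some neighbouring family members thus differed in opposite directions, and their reads may be shared where copies are alike. Further members of the run, not given here, fell or were not called.

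The enterocyte progenitors, whose Atoh1 the Cre was meant to delete, were set against the goblet cells for these genes. Atoh1 was at 136 and 141 CPM in goblet cells and 1.56 and 1.81 CPM in the progenitors. The background of that comparison was 57.8% called, 26.1% up and 31.7% down, and the median log2 difference over all genes was -0.15. Of the 22 brush border genes 20 rose, of the 21 fat genes 20 rose and 1 fell, of the 23 transporters 16 rose and 3 fell, and of the 12 villus top genes 12 rose. Apoa4 was at 2687 and 1631 CPM in enterocyte progenitors (log2 4.31 ± 0.81, edgeR adjusted p = 0.00016). Anpep was at 244 and 165 CPM there (log2 5.95 ± 0.59, edgeR adjusted p = 1.2e-07). Ada was at 381 and 241 CPM there, far above its Paneth level and still below both goblet libraries (log2 4.44 ± 0.63, edgeR adjusted p = 7.6e-06). The comparison with enterocyte progenitors uses the same goblet libraries as that with Paneth cells. Muc2 was at 4.65 and 9.31 CPM in the progenitors (log2 9.49 ± 0.50), and 16 of the 16 goblet mucus genes rose against them.

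Cells caught by the same antigens without DBZ were also in the series: the untreated wild-type CD274+ CD69+ control. Apoa4 was at 2173 and 2287 CPM in that control, Clca1 at 919 and 977 CPM and Muc2 at 414 and 404 CPM. The goblet libraries were higher than both control libraries in each. Replicate 1 of the control was labelled with another kit, TruSeq, and no test of this pair was made. Treatment and the time after it differ between these samples, and what either adds was not tested.

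Genes outside the gene groups also had large differences. Pmp22, peripheral myelin protein, was at 2033 and 1361 CPM in goblet cells and 0 and 0.250 CPM in Paneth cells. Npl, which breaks down sialic acid, was at 285 and 244 CPM in goblet cells and 0.511 and 0.187 CPM in Paneth cells (log2 9.68 ± 1.16, edgeR adjusted p = 1.8e-06). Oas1e, of the oligoadenylate synthetase family, was at 38.0 and 34.4 CPM in goblet cells and at 0 in Paneth cells, at least 147-fold higher. In the other direction Bmp3, a secreted member of the BMP family, was at 0 in both goblet libraries and 14.6 and 28.0 CPM in Paneth cells, at least 93.1-fold lower. Fgfbp1, which frees fibroblast growth factors from the matrix, fell to 0.394 and 0.442 CPM in goblet cells, against 51.4 and 50.8 CPM in Paneth cells (log2 -6.91 ± 0.51, edgeR adjusted p = 1.4e-08). A lack of overlap was part of the rule that named them.

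The Paneth libraries carried the stem cell and Wnt target genes. Of 23 tested, 0 rose and 18 fell in goblet cells, with a median log2 difference of -2.87. Olfm4, a secreted marker of crypt base stem cells, was at 1.73 and 4.12 CPM in goblet cells and 2403 and 1490 CPM in Paneth cells, 660-fold lower in goblet cells (log2 -9.37 ± 0.99, edgeR adjusted p = 4.9e-07), or 1117-fold without goblet replicate 2. Lgr5, the stem cell receptor for R-spondin, was at 2.76 and 3.31 CPM in goblet cells and 121 and 76.1 CPM in Paneth cells (log2 -5.01 ± 0.52). Smoc2, a matrix protein of stem cells, was at 4.81 and 2.65 CPM in goblet cells and 286 and 216 CPM in Paneth cells (log2 -6.07 ± 0.34). Gkn3, a gastrokine, was at 0 in both goblet libraries and at 23.0 and 18.9 CPM in Paneth cells, at least 91.5-fold lower in goblet cells. Nkd1, a feedback inhibitor of Wnt signalling, was at 1.66 and 0.884 CPM in goblet cells and 55.9 and 28.9 CPM in Paneth cells (log2 -5.06 ± 0.48). Lgr5-GFP-Cre stem cells held Lgr5 at 66.3 to 93.9 CPM, overlapping the Paneth libraries, and Olfm4 at 4126 to 5802 CPM. How far stem cells in the Paneth gate add to these values was not tested.

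Niche signals of Paneth cells and their receptors were called about as often as genes at large. Of 19 tested, 4 rose (21.1%) and 6 fell (31.6%), against 23% and 30.8% of all genes. Wnt3, the Wnt ligand of Paneth cells, was at 9.85 and 7.22 CPM in goblet cells and 117 and 55.8 CPM in Paneth cells (log2 -3.34 ± 0.54, edgeR adjusted p = 4.6e-05). Igf1r, the receptor for insulin-like growth factor, was at 1.73 and 1.10 CPM in goblet cells and 12.1 and 10.2 CPM in Paneth cells (log2 -2.97 ± 0.35). Egf, a growth factor of Paneth cells chosen after its values were seen, was at 1.73 and 1.25 CPM in goblet cells and 18.4 and 8.05 CPM in Paneth cells (log2 -3.14 ± 0.91, edgeR adjusted p = 0.0073). Bst1, an enzyme that makes cyclic ADP-ribose, rose instead, to 530.4 and 870.5 CPM in goblet cells, against 7.87 and 18.5 CPM in Paneth cells (log2 5.71 ± 0.94). Dll1, a Notch ligand, was not called, at 51.2 and 38.4 CPM in goblet cells and 65.5 and 63.9 CPM in Paneth cells (edgeR adjusted p = 0.15). The rising count was 2 without goblet replicate 1, and the call of Egf was lost without goblet replicate 2 (log2 -2.92) or Paneth replicate 1 (log2 -2.43).

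Notch pathway genes, like all genes tested, were more often lower than higher in goblet cells. Of 27 tested 5 rose (18.5%, against 23% of all genes) and 11 fell (40.7%, against 30.8%), with a median log2 difference of -0.39. Notch1, a receptor, was at 5.12 and 4.93 CPM in goblet cells and 45.5 and 36.8 CPM in Paneth cells (log2 -3.03 ± 0.35, edgeR adjusted p = 1.1e-06). Dtx4, a Notch-binding ubiquitin ligase, was at 6.62 and 6.26 CPM in goblet cells and 82.1 and 60.3 CPM in Paneth cells (log2 -3.46 ± 0.27). Hes1, a Notch target and repressor of Atoh1 chosen after its values were seen, was at 13 and 16.9 CPM in goblet cells and 94.4 and 44.2 CPM in Paneth cells (log2 -2.21 ± 0.42). Maml1, a coactivator of the pathway, rose to 29.6 and 27.1 CPM in goblet cells, against 5.62 and 4.87 CPM in Paneth cells (log2 2.44 ± 0.39). The rising count was 3 without goblet replicate 2.

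The transcription factors of the secretory lineage moved in both directions. Of 20 tested 4 rose and 9 fell, with a median log2 difference of -0.69. Klf4, a factor of goblet and villus cells, was at 893 and 1044 CPM in goblet cells and 68.2 and 51.0 CPM in Paneth cells (log2 4.02 ± 0.42, edgeR adjusted p = 3.9e-07). Atoh1, chosen after its values were seen, was at 136 and 141 CPM in goblet cells and 69.6 and 48.7 CPM in Paneth cells (log2 1.23 ± 0.32, edgeR adjusted p = 0.0032). Sox9, a factor that Paneth cells need, was at 35.7 and 23.5 CPM in goblet cells and 317 and 252 CPM in Paneth cells (log2 -3.26 ± 0.38). Ascl2, a stem cell factor, was at 0.867 and 0.884 CPM in goblet cells and 46.3 and 21.4 CPM in Paneth cells (log2 -5.26 ± 0.56). Spdef, which drives both cell types to mature, was not called, with means of 106 ± 10.6 CPM in goblet cells and 75.4 ± 34.8 CPM in Paneth cells (SD, n = 2 libraries each, edgeR adjusted p = 0.27). Without Paneth replicate 1 the count of falling factors was 3, and without Paneth replicate 2 that of rising factors was 2.

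Cell cycle genes were lower in goblet cells. Of 28 proliferation genes tested 0 rose and 26 fell, with a median log2 difference of -2.73. Of the TMM-scaled totals they took 0.0656% and 0.0591% in goblet libraries and 0.236% and 0.250% in Paneth libraries. Ccnb2, a mitotic cyclin, was at 8.12 and 7.58 CPM in goblet cells and 84.2 and 103 CPM in Paneth cells (log2 -3.58 ± 0.24, edgeR adjusted p = 5.5e-09). Cdc20, which starts the exit from mitosis, was at 5.68 and 7.36 CPM in goblet cells and 84.5 and 99.7 CPM in Paneth cells (log2 -3.82 ± 0.27). What dividing crypt cells within the Paneth gate add to these values was not tested. Ccnd2, a cyclin of the first growth phase, did not pass the test, at 199 and 167 CPM in goblet cells and 234 and 231 CPM in Paneth cells.

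Secreted defence genes were split. Of 27 tested 5 rose (18.5%) and 11 fell (40.7%), against 23% and 30.8% of all genes, with a median log2 difference of -1.10. Without goblet replicate 2 the falling count was lower. Dmbt1, a bacteria-binding secreted glycoprotein, was at 41.3 and 20 CPM in goblet cells and 1849 and 2969 CPM in Paneth cells (log2 -6.30 ± 0.56, edgeR adjusted p = 8.7e-08). Reg1, a regenerating-family lectin, was at 7.41 and 7.73 CPM in goblet cells and 679.5 and 1837 CPM in Paneth cells (log2 -7.38 ± 0.90). Ccl28, an epithelial chemokine for plasma cells, was at 4.26 and 3.53 CPM in goblet cells and 77.7 and 66.1 CPM in Paneth cells (log2 -4.20 ± 0.49). Duox2, an oxidase that makes hydrogen peroxide at the surface, rose to 255 and 1019 CPM in goblet cells, against 44.7 and 12.9 CPM in Paneth cells (log2 4.48 ± 0.69), and its maturation factor Duoxa2 rose with it, at 172 and 958 CPM in goblet cells against 11.5 and 3.50 CPM in Paneth cells (log2 6.27 ± 0.94). Both oxidase genes were chosen after their values were seen, and goblet replicate 2 held several times the level of goblet replicate 1.

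Interferon and antigen presentation genes were more often higher, with 10 of 24 tested called higher and 2 lower; the lower count was 1 without Paneth replicate 1, goblet replicate 1 or goblet replicate 2. Irf7, a master factor of the interferon response, was at 248 and 319 CPM in goblet cells and 37.3 and 33.3 CPM in Paneth cells (log2 3.01 ± 0.34, edgeR adjusted p = 1.1e-06). H2-K1, a class I antigen-presenting molecule, was at 2756 and 2992 CPM in goblet cells and 789 and 559 CPM in Paneth cells (log2 2.09 ± 0.31). Mx1, of the family of antiviral GTPases, is annotated in RefSeq GRCm38.p6 as a transcribed pseudogene. Its level was 12.2 and 10.2 CPM in goblet cells and 0.511 and 0.312 CPM in Paneth cells (log2 4.78 ± 0.67). Each had its goblet libraries above its Paneth libraries.

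Immediate early genes, which cells switch on within minutes of being disturbed, were lower in goblet cells. Of 20 immediate early and heat shock genes tested 0 rose and 16 fell, with a median log2 difference of -2.73. Ier2 was at 43.2 and 49.3 CPM in goblet cells and 1218 and 833 CPM in Paneth cells (log2 -4.47 ± 0.26, edgeR adjusted p = 2.1e-09). Egr1, chosen after its values were seen, was at 29.3 and 31.7 CPM in goblet cells and 1611 and 753 CPM in Paneth cells (log2 -5.27 ± 0.59). Nr4a1, a nuclear receptor of the early response that is also listed with the secretory factors, was at 1.66 and 1.03 CPM in goblet cells and 430.2 and 59.1 CPM in Paneth cells (log2 -7.51 ± 0.80). The 20 genes took 0.333% and 0.331% of the TMM-scaled totals in goblet libraries and 1.43% and 0.879% in Paneth libraries. Untreated CD274+ CD69+ control cells, sorted on the goblet antigens, held 1.17% and 1.17%. Unsorted DBZ secretory progenitors, for which no Dispase step is recorded, held 0.261% and 0.299%. Mean Ier2 in groups with no recorded Dispase step ran from 57.8 CPM in Rbpj secretory progenitors to 671 CPM in Lgr5-GFP-Cre stem cells. Rn45s, the 45S ribosomal RNA precursor chosen after its values were seen, moved the same way, at 539 and 697 CPM in goblet cells and 11979 and 6660 CPM in Paneth cells (log2 -3.92 ± 0.44). The goblet labels give a chromatin step right after sorting as well as RNA extraction, so how those cells were kept before lysis is unclear, and whether handling plays a part in these values was not tested.

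Glycolysis genes were more often higher than lower. Of 16 glycolysis genes tested 12 rose and 1 fell, with a median log2 difference of 0.99. Gapdh, a glycolytic dehydrogenase, was at 2161 and 2878 CPM in goblet cells and 443 and 632 CPM in Paneth cells (log2 2.23 ± 0.27, edgeR adjusted p = 2.0e-06). Slc16a3, the lactate exporter, was at 115 and 295 CPM in goblet cells and 10.5 and 7.68 CPM in Paneth cells (log2 4.50 ± 0.64). The gene that fell, Eno1, has many near-identical copies, held 0 and 1 counts in the goblet libraries and is uncertain. Without goblet replicate 2 the rising count was 6, and without Paneth replicate 1 it was 7. The call of Eno1 was lost with the DESeq2 Wald test and without goblet replicate 1 (log2 -3.0) or Paneth replicate 1 (log2 -3.69). Of 20 fatty acid oxidation and ketogenesis genes 4 rose (20%) and 8 fell (40%), against 23% and 30.8% of all genes. The rising count was lower without Paneth replicate 1. Acaa2, a mitochondrial thiolase of fatty acid oxidation, was at 65.2 and 59.6 CPM in goblet cells and 255 and 469.5 CPM in Paneth cells (log2 -2.54 ± 0.26, edgeR adjusted p = 3.9e-07). Of 20 zinc handling and autophagy genes 4 rose and 4 fell, among them Slc30a10, a metal exporter, which rose to 76.8 and 125 CPM in goblet cells, against 3.58 and 17.5 CPM in Paneth cells (log2 3.24 ± 0.73). For zinc and autophagy the falling count was 2 without either goblet replicate or Paneth replicate 1, and the rising count 2 without goblet replicate 1.

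The genes of the sorting antigens answered only in part to the gates. Cd24a, the antigen of the Paneth gate, was at 929 and 903 CPM in goblet cells and 1455 and 1679 CPM in Paneth cells, and was not called (log2 -0.77 ± 0.36, edgeR adjusted p = 0.079). Cd274, an antigen of the goblet gate, was at 2.92 and 4.05 CPM in goblet cells and 0.920 and 1.37 CPM in Paneth cells (log2 1.58 ± 0.48, edgeR adjusted p = 0.0092), a call lost without goblet replicate 2 (log2 1.33) or Paneth replicate 1 (log2 1.34). Cd69, its other antigen, was at 0.709 and 1.03 CPM in goblet cells and 2.15 and 0.250 CPM in Paneth cells, with the groups overlapping, and its fitted difference turned to 1.78 without Paneth replicate 1. Fut2, a fucosyltransferase that makes the sugar UEA lectin binds, was higher in the cells not gated on it, at 86.4 and 143 CPM in goblet cells and 2.04 and 7.31 CPM in Paneth cells (log2 4.57 ± 0.97, edgeR adjusted p = 0.00066). Fut1, the other such enzyme, was at 2.92 and 1.40 CPM in goblet cells and 19.8 and 4.75 CPM in Paneth cells (log2 -2.50 ± 0.89, edgeR adjusted p = 0.024), a call lost without goblet replicate 1 (log2 -3.11), goblet replicate 2 (log2 -2.06) or Paneth replicate 1 (log2 -1.14). RNA levels do not measure the antigens on the cell surface.

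Markers of further cell types were present in both gates. Of 26 enteroendocrine genes tested 12 rose and 1 fell, and their summed level was 3333 and 3110 CPM in goblet cells and 1139.6 and 1199 CPM in Paneth cells. Chgb, a granin of hormone granules, was at 1378 and 1017 CPM in goblet cells and 239 and 153 CPM in Paneth cells (log2 2.61 ± 0.50, edgeR adjusted p = 0.00027). Gcg, the glucagon precursor chosen after its values were seen, fell to 92.6 and 51.6 CPM in goblet cells, against 162 and 217 CPM in Paneth cells (log2 -1.39 ± 0.45). Its call was lost without goblet replicate 2 (log2 -1.03) or Paneth replicate 2 (log2 -1.16). The share of these values that endocrine cells add was not tested.

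Tuft cell genes depended on a single library. Of 17 tested 0 rose and 3 fell, and the falling count was 11 without Paneth replicate 1 but 0 without Paneth replicate 2 and 1 without either goblet replicate. Their summed level was 313 and 303 CPM in goblet cells and 124 and 1786 CPM in Paneth cells. Trpm5, a tuft cell ion channel chosen after its values were seen, was at 62.9 and 79.2 CPM in goblet cells and 12.9 and 284 CPM in Paneth cells, with the goblet values between the Paneth values. Its fitted difference of -1.06 turned to 2.47 without Paneth replicate 2. Lymphocyte and myeloid genes also varied within the Paneth pair, with summed levels of 909 and 1510 CPM in goblet cells and 1832 and 198 CPM in Paneth cells. Of 22 tested 8 rose and 1 fell, and the rising count was 13 without Paneth replicate 1, 5 without Paneth replicate 2 and 4 without goblet replicate 2. Cd8a, a receptor of killer T cells, was at 25.9 and 48.4 CPM in goblet cells and 4.60 and 1.12 CPM in Paneth cells (log2 3.76 ± 0.92, edgeR adjusted p = 0.0023). Lyz2, the lysozyme of myeloid cells whose reads may be shared with Lyz1, fell to 1.66 and 3.53 CPM in goblet cells, against 83.2 and 32.2 CPM in Paneth cells. Stromal and endothelial genes summed to 16.6 and 19.1 CPM in goblet cells and 10.0 and 6.62 CPM in Paneth cells, with 2 of 11 called higher and 1 lower, the lower count being 2 without Paneth replicate 2 and 0 without any other library.

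**Figure D5:**
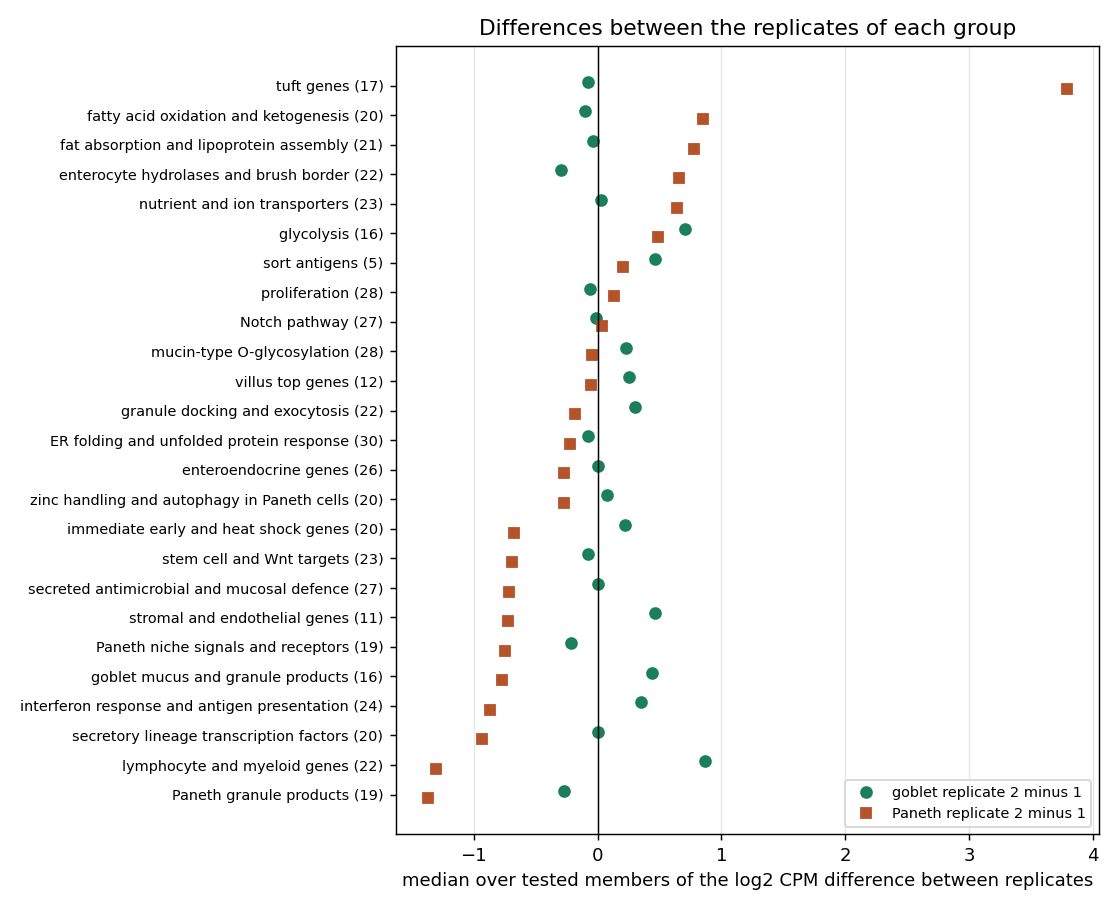
Median over tested members of the log2 CPM difference between the replicates of a group (x, replicate 2 minus replicate 1), per gene group, for goblet libraries (circles) and Paneth libraries (squares). The tuft group stands at 3.78 in Paneth libraries, and the Paneth granule group at -1.37.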

How the data were processed

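RNA-seq read counts were used from 24 libraries of 11 groups of mouse small intestinal cells. The deposited table holds whole-number counts per gene for 24062 gene symbols, raw as far as the values show. Bowtie2, TopHat2 2.0.6, DESeq2 and the build mm10 are named, without roles, in the submitters' processing notes. Which program counted the reads, on what annotation and with which strand setting is not given in the sources used here. Counts were analysed with edgeR 4.0.16 in R 4.3.3. Genes were kept by filterByExpr (minimum count 10, minimum total 15), TMM gave the scaling, and a single quasi-likelihood fit held the 24 libraries, with the spread estimated jointly over the 11 groups. Goblet cells were tested against Paneth cells, enterocyte progenitors and DBZ secretory progenitors, and p-values were adjusted over all 14837 genes within each comparison. On data simulated for goblet against Paneth over 14205 genes the test recovered 28.6% of genes changed by 1 on the log2 scale and 95.5% of those changed by 2. Only 112 and 88 genes were changed there, in goblet libraries alone, and the groups did not otherwise differ. The recovery rates therefore need not hold in the data, where 53.8% of genes were called.

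Alternatives were DESeq2 1.42.0 size factors, its Wald test, no filter, only the compared groups, a replicate block, a fold threshold of 1 on the log2 scale and leaving out each library. A fold against a group at 0 uses 3 counts per library as the floor (0.229 CPM in goblet and 0.247 CPM in Paneth cells), which covers counting error only. Of the genes tested, 14786 matched RefSeq GRCm38.p6 by symbol or synonym, and 11108 have a promoter in its table. The members and the 25 gene lists were chosen with earlier results of these data known. The rule for named genes takes the sort antigens, up to 4 called members of lowest adjusted p and the most expressed uncalled member of each list, and the 10 largest fold changes per direction among called genes of 20 CPM or more whose groups do not overlap. A gene named outside the rule is marked in the text as picked with its values known, and some genes that meet it are not reported here.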

Additional observations from a re-analysis of the deposited data

How the results depend on the processing

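The 7978 calls of goblet against Paneth cells were 7788 with DESeq2 size factors, 8040 with its Wald test, 7712 with no filter and 6928 with only the compared groups, and 6236 to 7052 without single libraries. DESeq2 size factors moved the median log2 difference over all genes to 0.01, against -0.17 with TMM, and the share of calls that were higher to 51.2%, against 42.8%. A threshold of 1 on the log2 fold change left 3819 calls (1656 higher, 2163 lower), 5016 against enterocyte progenitors (2365 higher, 2651 lower) and 4443 against DBZ secretory progenitors (1955 higher, 2488 lower). Deviations of same-numbered goblet and Paneth libraries had a correlation of -0.05 over the genes. With 2 libraries a group, this cannot tell whether same-numbered libraries were handled together. With a replicate block over only the compared groups 6129 genes were called, 3090 higher and 3039 lower; the block gave 9456 calls against enterocyte progenitors and 8454 against DBZ secretory progenitors. Cd69 turned to 0.20 and Trpm5 to 0.29 on the log2 scale with the block. Without single libraries Cd69 ran from -1.29 to 1.78, Trpm5 from -2.0 to 2.47 and Agr2 from -0.87 to 0.38. None of the 3 was called. Of 101 called genes among the 113 named in goblet against Paneth cells, 9 lost their call at the threshold of 1, 4 with only the compared groups and 3 to 6 without single libraries. With 2 libraries a group, a group left with 1 is assumed to vary like the others, and small differences of low genes are not detectable at this depth. The causes of these shifts were not tested.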

Other observations

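Lars2, annotated as the mitochondrial leucyl-tRNA synthetase and chosen after its values were seen, was lowest in the goblet libraries among all 24 libraries of the fit. It was at 66.4 and 82.3 CPM in goblet cells and 4378 and 1660 CPM in Paneth cells (log2 -5.34 ± 0.53, edgeR adjusted p = 2.4e-07). The Rbpj secretory progenitors were next, at 197 and 139 CPM. Rn45s, the ribosomal RNA precursor, had the same lowest 4 libraries, with the Rbpj secretory progenitors at 1449 and 1328 CPM. No cause of these levels was tested.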
